A study of Homo sapiens with 6 samples.

Results

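Integrins are receptors that join an alpha and a beta subunit across the membrane, bind the extracellular matrix outside the cell and link it to actin inside. The set described here holds 10 subunit genes that bind matrix proteins or the arginine-glycine-aspartate (RGD) motif and that lie outside the hemidesmosome, the anchoring junction built on the subunit pair alpha6 and beta4. They were chosen by gene symbol, as ITGA2, ITGA3, ITGA4, ITGA5, ITGAV, ITGB1, ITGB3, ITGB5, ITGB6 and ITGB8, and are 10 of 58174 gene IDs in the deposited table. The alpha chain largely sets the ligand: alpha2 binds collagen, alpha3 laminins, alpha4 and alpha5 fibronectin, and alphaV vitronectin, fibronectin and the latent form of TGF-beta. Beta1 pairs with many alpha chains, whereas beta3, beta5, beta6 and beta8 serve here as partners of alphaV. In breast epithelium these receptors anchor cells to the basement membrane and to stroma, and in carcinoma cells they are studied for their part in migration and survival.

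RNA-seq of total RNA was done in MDA-MB-231, a human triple-negative breast cancer cell line of mesenchymal appearance. The samples were labelled KO1 and KO2, both of the ARID1A knockout genotype, and NC, of the control genotype, with 2 samples for each of the 3 groups. ARID1A is the AT-rich DNA-binding protein of BAF, a complex that moves nucleosomes. Whether KO1 and KO2 are clones or pools, and how they were made, is not given in the sources used here. The table holds 1 column of estimated counts per group, without a replicate number, so no spread between cultures could be computed for any value below, and the 95% intervals in brackets measure counting error alone. Sequenced fragments carry no molecular identifiers and are not independent molecules. In bulk RNA, fewer cells that express a gene and less RNA per cell cannot be told apart.

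Some facts of the columns bear on every result. Totals were 25801499 to 26798753 estimated counts, and the mitochondrial genome took 20.5% of counts in the column labelled KO1, 16.9% in KO2 and 12.8% in NC. ARID1A was at 45.7 CPM (estimated counts per library, put on a common scale by TMM) in the column labelled KO1, 83.9 CPM in the column labelled KO2 and 77.3 CPM in NC. These are 0.59-fold and 1.09-fold of NC, both short of the 2-fold minimum used below. The RNA level thus gives no check of either knockout label. The protein was not analysed here. All 7 markers of MDA-MB-231 and mesenchymal-like cells were detected in each column. The leukocyte marker list summed to 8.30, 15.5 and 16.6 CPM in KO1, KO2 and NC, with PTPRC at 0, 4 and 0 counts. Most of that sum came from ITGB2, at 6.48, 8.71 and 10.3 CPM, and CD14, at 1.30, 5.71 and 5.82 CPM. The luminal list summed to 1040, 800 and 592 CPM. The part of these differences in the integrin results was not tested.

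Of the 10 integrins, 8 reached a mean of 1 CPM over the 3 columns, and ITGA4 and ITGB6 did not. Columns were compared by a rule of size that carries no p-value. A gene passed when its fold was at least 2 (a log2 fold of 1 or more in size, with a prior count of 2), when the exact interval of the fold excluded equality and when the mean was at least 1 CPM. In KO1 against NC, 1 of the 8 integrins was higher (ITGA2), 2 were lower (ITGAV and ITGB3) and 5 were neither, where 32.8% of 14524 genes passed, 15.4% as higher and 17.4% as lower. In KO2 against NC, 1 was higher (ITGB8), 0 were lower and 7 were neither, where 21% of genes passed, 11% as higher and 9.98% as lower. No integrin of the set passed in both knockout columns, in which 6.22% of genes were higher and 5.65% lower. Both comparisons use the same NC column. The median log2 fold of the 8 integrins was 0.21 in KO1 and 0.37 in KO2, and that of all genes -0.01 and -0.00.

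The only test joined both knockout columns as 1 group of 2 against NC (edgeR's quasi-likelihood F test, with Benjamini-Hochberg adjustment over all genes). It called 0 of the 9 integrins tested, ITGB6 included, and 0 reached an unadjusted p under 0.05. It called 0.148% of 18289 genes, 0.0547% as higher and 0.093% as lower, and 7.7% had an unadjusted p under 0.05. Adjusted p ranged from 0.807 for ITGA2 to 0.998 for ITGAV (edgeR). The test has 1 residual degree of freedom and takes the lone NC column to vary like the knockout columns, so differences below are given as values of single columns.

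By level, ITGA3, ITGB1 and ITGA5 led the set in each column. On the TPM scale, which divides by transcript length and so allows genes to be compared, and with all transcripts of a gene summed, ITGA3 stood first, then ITGB1, ITGA5 and ITGB5. On coding transcripts alone ITGB1 stood above ITGA3 in every column, at 202 against 197 TPM in KO1, 320.1 against 298 TPM in KO2 and 244 against 218 TPM in NC. ITGB5 was then at 14.6 TPM in KO1, beside 14.7 TPM of ITGA2. ITGA3 was at 306 TPM in KO1, 399 TPM in KO2 and 277 TPM in NC, and made up 71.4%, 75.3% and 72.8% of the summed TPM of the 5 alpha subunits in the set. ITGB1 was at 203 TPM in KO1, 325 TPM in KO2 and 247 TPM in NC, or 81.4%, 77.9% and 78.5% of the summed TPM of the 5 beta subunits, all transcripts included. Chains for the laminin receptor alpha3beta1 and the fibronectin receptor alpha5beta1 were thus the most abundant integrin RNAs of the set in all 3 columns. Below them the order differed between columns. ITGA2 lay above ITGAV in KO1, at 14.7 against 3.24 TPM, and below it in KO2, at 12.8 against 15.6 TPM, and in NC, at 6.86 against 10.4 TPM. Without replicates it cannot be said which neighbours in this order differ beyond the spread between cultures.

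**Figure D1:**
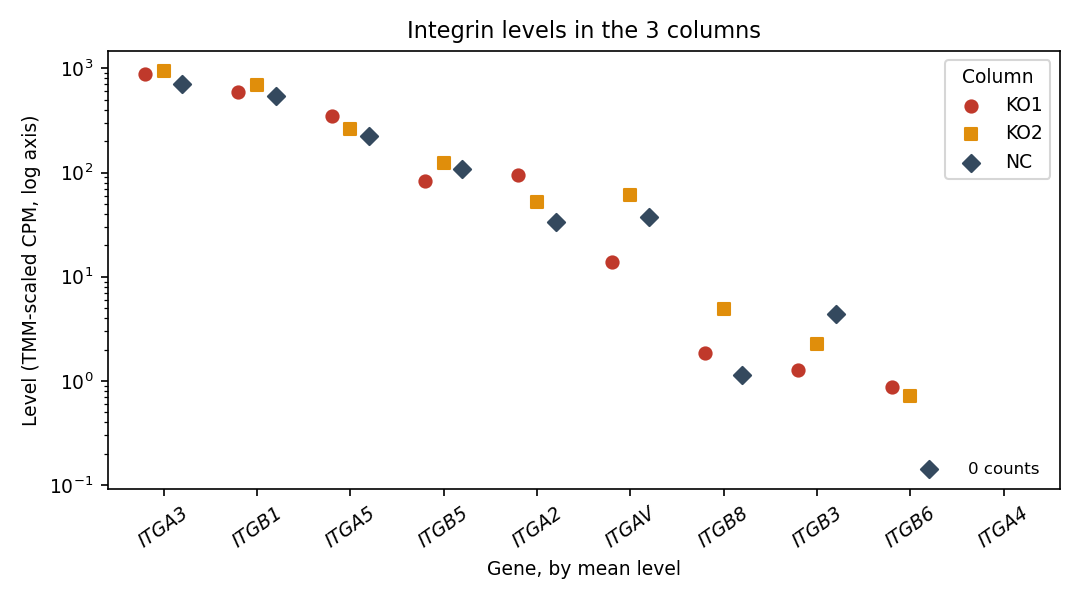
Levels of the 10 integrin genes in TMM-scaled CPM on a log axis, ordered by mean, with 1 point for each of the columns KO1, KO2 and NC and no error between cultures. ITGA3 lies between 714 and 949 CPM, the KO1 point of ITGAV lies at 13.96 CPM under the points of KO2 and NC, and ITGA4 had 0 counts in every column.

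ITGA2 (ENSG00000164171, hg38 chromosome 5, 52989326 to 53094779, plus strand) encodes the alpha2 chain of the collagen receptor alpha2beta1. It was at 93.7 CPM in the column labelled KO1, 52.5 CPM in the column labelled KO2 and 33.8 CPM in NC. Both knockout columns lay above NC, and KO1 lay highest. ITGA2 was 2.78-fold higher in KO1 than in NC (2.57 to 2.999), which passed the size rule, and 1.56-fold higher in KO2 (1.43 to 1.69), which did not. KO2 was 1.78-fold lower than KO1 (1.67 to 1.91) in CPM and 1.15-fold lower on deposited TPM. Among the 50 measured genes nearest to ITGA2, the median log2 fold was 0.15 in KO1 and 0.31 in KO2, and ITGA2 lay above 47 and 37 of them. The full-length transcript ITGA2-201 took every ITGA2 count in KO1 and NC. In KO2 it took 87.6%, and 94 and 89 counts were placed on ITGA2-205 and ITGA2-206, annotated as targets of nonsense-mediated decay and at 0 counts in both other columns.

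ITGA3 (ENSG00000005884, chromosome 17, 50055968 to 50090481, plus strand) encodes the alpha3 chain of the laminin receptor alpha3beta1. It was at 887 CPM in KO1, 949 CPM in KO2 and 714 CPM in NC. In TMM-scaled CPM the knockout columns lay close to each other and above NC. ITGA3 was 1.24-fold of NC in KO1 (1.22 to 1.27) and 1.33-fold in KO2 (1.31 to 1.35), both under the 2-fold minimum. The closeness depends on the scale. On deposited TPM, KO1 lay nearer to NC than to KO2, at 306 TPM in KO1, 399 TPM in KO2 and 277 TPM in NC. With total counts the log2 fold of KO1 against NC was 0.085. The transcripts of ITGA3 did not all differ alike.

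ITGA3 has 2 coding forms that differ at the end of the protein. The alpha3A form (transcript ITGA3-202, 1051 codons) takes in a cassette exon with its own stop codon, and the alpha3B form (ITGA3-201, 1066 codons) skips it and reads on into the next exon. That next exon is untranslated in the alpha3A transcript. The sequences that encode the start of each cytoplasmic tail are shown because they are what separates the 2 forms, the first whole with its stop codon in capitals (hg38, chr17:50088225-50088335, plus strand) and the second by its first 30 bases (chr17:50089110-50089139), from the GENCODE release 29 transcripts. Of these first 30 bases 20 are equal between the forms.
alpha3A tail: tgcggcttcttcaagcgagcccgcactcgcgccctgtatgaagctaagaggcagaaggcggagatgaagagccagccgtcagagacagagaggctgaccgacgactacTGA
alpha3B tail, first bases: tgtgacttctttaagcggacccgctattat

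The alpha3A form dominated in every column. ITGA3-202 was at 161 TPM in KO1, 257 TPM in KO2 and 198 TPM in NC. ITGA3-201, the alpha3B form, was at 4.55 TPM in KO1, 18.5 TPM in KO2 and 6.94 TPM in NC. As a share of the estimated counts of both forms, alpha3B took 2.08% in KO1 (Clopper-Pearson 1.86 to 2.32), 5.09% in KO2 (4.81 to 5.39) and 2.55% in NC (2.32 to 2.80). The KO2 share lay above the intervals of both other columns. ITGA3-201 was chosen after its values were seen, as it holds under 10% of the gene's TPM.

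The excess of ITGA3 in KO1 lay mostly in transcripts other than alpha3A. ITGA3-202 itself was 1.05-fold higher in KO1 than in NC (1.03 to 1.07) and 1.25-fold higher in KO2 (1.22 to 1.27). ITGA3-208, a retained-intron transcript, had 4256 estimated counts in KO1, 2585 in KO2 and 1500 in NC, and was 3.45-fold higher in KO1 (3.26 to 3.67) and 1.72-fold higher in KO2 (1.62 to 1.84). ITGA3-209, annotated as coding, was 3.66-fold higher in KO1 (3.06 to 4.40) and 1.78-fold higher in KO2 (1.46 to 2.17). Retained-intron transcripts made up 24.3% of ITGA3 counts in KO1, 14.7% in KO2 and 11.8% in NC. Over all protein-coding genes that share was 7.07% in KO1, 7.25% in KO2 and 6.93% in NC, and 12.8% of 6005 genes had a larger gain in KO1 than ITGA3. Counts of transcripts that overlap are estimates of the authors' processing, and junction reads were not analysed here.

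ITGA5 (ENSG00000161638, chromosome 12, 54395261 to 54419460, minus strand) encodes the alpha5 chain of the main fibronectin receptor, alpha5beta1. It was at 350.2 CPM in KO1, 261 CPM in KO2 and 226 CPM in NC, so that both knockout columns again lay above NC. It was 1.55-fold higher in KO1 (1.502 to 1.605) and 1.16-fold higher in KO2 (1.12 to 1.20), and passed in neither. Its full-length transcript ITGA5-201 was at 93.9 TPM in KO1, 96.0 TPM in KO2 and 79.9 TPM in NC. ITGA4 (ENSG00000115232, chromosome 2, 181457202 to 181536187), whose alpha4 chain, best known from leukocytes, binds fibronectin and the endothelial ligand VCAM1, had 0 counts in all 11 of its transcripts in every column. A count of 0 allows up to 0.130 CPM in KO1 and 0.107 CPM in KO2 and NC, at 3 counts per column. Among the fibronectin-binding alpha chains of the set, ITGA5 was thus the most abundant by TPM in every column.

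ITGB1 (ENSG00000150093, chromosome 10, 32900319 to 33005792, minus strand) encodes beta1, the shared partner of alpha2, alpha3, alpha4 and alpha5. It was at 591 CPM in KO1, 688 CPM in KO2 and 547 CPM in NC. The gene total thus differed little between columns, 1.08-fold above NC in KO1 (1.06 to 1.11) and 1.26-fold in KO2 (1.23 to 1.28). The KO1 direction depends on the scale: its log2 fold was 0.11 with TMM, -0.12 with total counts and -0.28 on deposited TPM.

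Under the near-equal ITGB1 total, 1 of its transcripts had almost no estimated counts in both knockout columns. ITGB1-202 had 4 estimated counts in KO1, 14 in KO2 and 1617 in NC. It was 332-fold lower in KO1 (129 to 1220) and 116-fold lower in KO2 (68.7 to 212), while ITGB1-201 was 1.21-fold higher in KO1 (1.19 to 1.24) and 1.41-fold higher in KO2 (1.38 to 1.44). ITGB1-202 made up 0.0295% of the counts of both transcripts in KO1 (0.00804 to 0.0755), 0.0731% in KO2 (0.0400 to 0.123) and 10.6% in NC (10.2 to 11.1). The knockout columns were alike in this and NC stood apart. The intervals leave out error in how the authors' processing divided counts between these overlapping transcripts, and junction reads were not analysed here. ITGB1-202 was chosen after its values were seen.

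ITGB1-202 was not the only transcript with such a difference. Of 4869 transcripts with at least 1000 estimated counts in NC, 101, or 2.07%, were at least 100-fold lower in both knockout columns. For 54 of these the gene total stayed within 2-fold of NC in both. Both cut-offs lie below the values of ITGB1-202 itself, and transcripts that were higher in both knockout columns were not counted. Both ITGB1 transcripts carry the same coding sequence of 798 codons. They differ in their noncoding first exon, at 32958145 to 32958209 in ITGB1-201 and at 32957759 to 32957894 in ITGB1-202, 315 bases apart by their starts, and in their 3′ ends. ITGB1-205, which encodes the muscle form beta1D and was also chosen after its values were seen, had 1, 3 and 5 counts in KO1, KO2 and NC.

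Upstream sequence is shown for ITGB1, whose transcripts with different first exons differed, and for ITGA2 and ITGAV, which lay on opposite sides of NC in KO1. The windows come from RefSeq (build GRCh38.p14), which gave 12 windows for 8 of the 10 members and none for ITGA3 and ITGB3. Each runs 5′ to 3′ on the gene's strand up to 250 bases before a RefSeq start, without bases of an exon annotated for that gene. Exons of other genes were not checked. That of ITGB1 (chr10:32958233-32958480, minus strand) lies before the first exon of ITGB1-201, that of ITGA2 spans chr5:52989102-52989325 and that of ITGAV spans chr2:186589806-186590055, both on the plus strand. Capitals mark matches on either strand to the GC box GGGCGG, the TEAD motif GGAATG, the AP-1 motif TGANTCA, the cyclic AMP response element TGACGTCA or the ETS motif CCGGAAGT.
ITGB1 upstream: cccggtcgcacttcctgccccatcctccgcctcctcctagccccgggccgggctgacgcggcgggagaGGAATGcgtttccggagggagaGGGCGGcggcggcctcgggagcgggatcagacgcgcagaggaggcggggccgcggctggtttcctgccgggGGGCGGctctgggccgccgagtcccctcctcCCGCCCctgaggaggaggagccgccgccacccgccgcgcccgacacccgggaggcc
ITGA2 upstream: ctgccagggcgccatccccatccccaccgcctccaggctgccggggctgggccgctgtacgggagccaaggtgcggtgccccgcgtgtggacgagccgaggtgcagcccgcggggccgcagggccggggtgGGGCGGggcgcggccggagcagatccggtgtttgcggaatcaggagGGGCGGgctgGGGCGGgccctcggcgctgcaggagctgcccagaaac
ITGAV upstream: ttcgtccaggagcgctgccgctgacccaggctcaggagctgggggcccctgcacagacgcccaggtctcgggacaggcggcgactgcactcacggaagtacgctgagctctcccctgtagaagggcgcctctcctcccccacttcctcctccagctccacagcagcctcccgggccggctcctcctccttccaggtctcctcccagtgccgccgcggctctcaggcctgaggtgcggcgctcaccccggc

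The ITGB1 stretch holds 3 GC boxes and 1 match to the TEAD motif, the ITGA2 stretch holds 3 GC boxes, and the ITGAV stretch holds 0 matches. Over all 35116 RefSeq windows, cut to the same 250 upstream bases, 42.6% held a GC box, 11.9% the TEAD motif, 6.57% the AP-1 motif, 1.65% the cyclic AMP response element and 3.42% the ETS motif. The 3 stretches were 78.2%, 77.2% and 70.8% G and C in ITGB1, ITGA2 and ITGAV, against a median of 58% over all windows. A match is a run of letters, and no binding was measured here.

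ITGAV (ENSG00000138448, chromosome 2, 186590065 to 186680901, plus strand) encodes alphaV, the alpha chain shared by the RGD receptors for vitronectin and latent TGF-beta. It was at 13.96 CPM in the column labelled KO1, 61.1 CPM in the column labelled KO2 and 37.0 CPM in NC. The knockout columns lay on opposite sides of NC. ITGAV was 2.65-fold lower in KO1 (2.34 to 3.02; log2 -1.40), which passed the size rule, and 1.65-fold higher in KO2 (1.53 to 1.78; log2 0.72), which did not. The 2 columns labelled with the same genotype differed more from each other than either did from NC, with KO2 4.38-fold above KO1 (3.88 to 4.95). In KO2 against KO1, 2 of the 8 integrins passed as higher (ITGAV and ITGB8), 0 as lower and 6 as neither, where 26.1% of genes passed, 14.9% as higher and 11.2% as lower. The transcript ITGAV-201 held 309, 1695 and 1014 of the 321, 1711 and 1037 ITGAV counts in KO1, KO2 and NC, so the difference lay in the full-length form. Over the 50 measured genes nearest to ITGAV the median log2 fold was 0.09 (KO1) and 0.20 (KO2), and ITGAV lay above 5 and 40 of them. As a share of the alpha subunits' TPM, ITGAV took 0.755% in KO1, 2.93% in KO2 and 2.73% in NC.

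ITGB5 (ENSG00000082781, chromosome 3, 124761948 to 124901418, minus strand) encodes beta5, which forms the vitronectin receptor alphaVbeta5. It was the main non-beta1 partner of alphaV by RNA, with 93.1% of the TPM of ITGB3, ITGB5, ITGB6 and ITGB8 together in KO1, 96.5% in KO2 and 96.4% in NC. Without the noncoding transcripts listed under ITGB6 these shares were 98.5%, 97.4% and 97.1%. Its level was 82.7 CPM in KO1, 123 CPM in KO2 and 108 CPM in NC. As with ITGAV, KO1 lay below NC and KO2 above it, though by less: 1.31-fold lower in KO1 (1.23 to 1.38) and 1.14-fold higher in KO2 (1.08 to 1.19). ITGB5 passed the size rule in neither, nor in KO2 against KO1, where it was 1.49-fold higher (1.41 to 1.57).

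The transcripts of ITGB5 differed more than its total. ITGB5-201, the full-length coding transcript, had 550 counts in KO1, 1262 in KO2 and 1411 in NC, and was 2.11-fold lower in KO1 (1.91 to 2.33) and 1.12-fold lower in KO2 (1.04 to 1.21). ITGB5-202, a retained-intron transcript, was at 1.01-fold of NC in KO1 (0.931 to 1.09) and 1.17-fold in KO2 (1.09 to 1.26). Retained-intron transcripts took 62.3% of ITGB5 counts in KO1, 48.7% in KO2 and 47.4% in NC, and 10.9% of the 6005 genes had a larger gain in KO1. ITGB5-207, annotated as coding, had 143 counts in KO1, 429 in KO2 and 137 in NC, and was 3.13-fold higher in KO2 (2.58 to 3.82). The lower ITGB5 total of KO1 was thus carried by the full-length coding transcript and not by the retained-intron form.

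**Figure D2:**
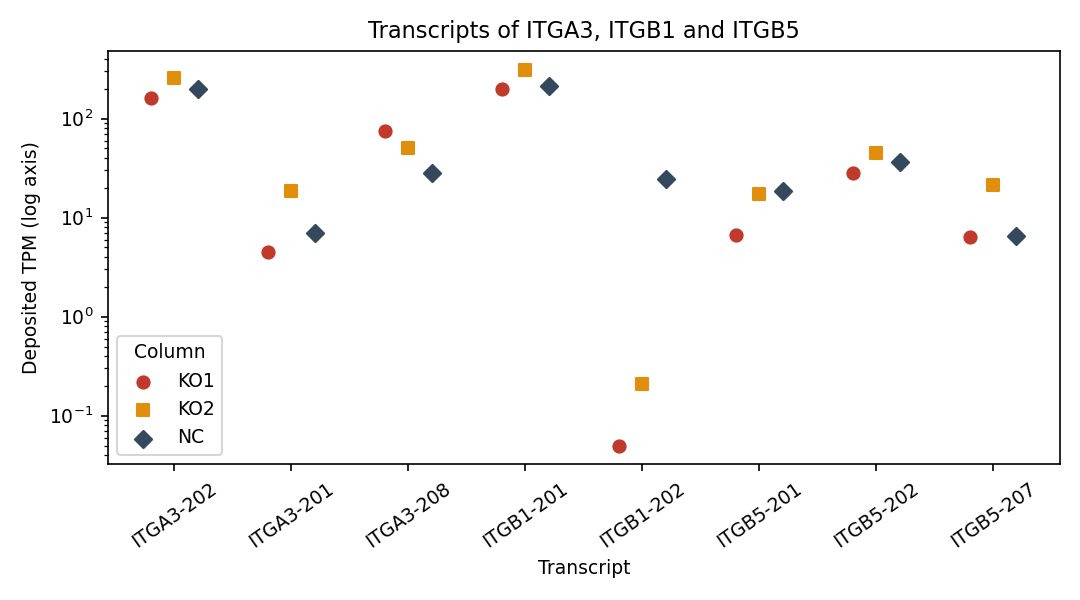
Deposited TPM on a log axis of the main transcripts of ITGA3, ITGB1 and ITGB5 in KO1, KO2 and NC, with 1 point per column and no error between cultures. ITGB1-202 stands at 0.05 TPM in KO1 and 0.21 TPM in KO2 against 24.4 TPM in NC, while ITGB1-201 lies between 200.1 and 313 TPM.

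ITGB3 (ENSG00000259207, chromosome 17, 47253846 to 47311816, plus strand) encodes beta3, the partner of alphaV in the vitronectin receptor alphaVbeta3 and, in platelets, of alphaIIb. It was scarce, at 29 estimated counts in KO1, 64 in KO2 and 123 in NC, or 1.26, 2.28 and 4.39 CPM. Both knockout columns lay below NC. ITGB3 was 3.48-fold lower in KO1 (2.31 to 5.42), which passed the size rule, and 1.92-fold lower in KO2 (1.41 to 2.64), a log2 fold of -0.92, just short of the minimum. Of the KO2 counts 17 lay on ITGB3-202, at 0 in KO1 and NC, and the full-length ITGB3-201 had 29 counts in KO1, 47 in KO2 and 123 in NC. The platelet marker list summed to 0.478 CPM in KO1, 2.64 CPM in KO2 and 2.14 CPM in NC. Of its 4 markers, in KO1, KO2 and NC, GP1BA had 11, 47 and 51 counts and ITGA2B, which encodes alphaIIb, 0, 23 and 3. PF4 had 0, 4 and 6 counts, and PPBP was at 0 in every column. ITGB3 was the only measured member below NC in both knockout columns, and among the 50 measured genes nearest to it it lay above 3 in KO1 and 10 in KO2.

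ITGB8 (ENSG00000105855, chromosome 7, 20330702 to 20415754, plus strand) encodes beta8, whose alphaVbeta8 receptor binds latent TGF-beta. It had 43 estimated counts in KO1, 138 in KO2 and 32 in NC, or 1.87, 4.93 and 1.14 CPM. KO2 stood apart, and KO1 lay near NC. ITGB8 was 1.64-fold higher in KO1 (1.01 to 2.67), under the minimum, and 4.31-fold higher in KO2 (2.92 to 6.55), which passed. KO2 was 2.64-fold above KO1 (1.86 to 3.80), which also passed. The full-length ITGB8-201 had 41, 133 and 22 of these counts in KO1, KO2 and NC. On protein-coding transcripts alone, an alternative chosen after the data were seen, ITGB8 passed in KO1 as well, with a log2 fold of 1.21. The region around it was also higher, with a median log2 fold over the 50 nearest measured genes of 0.72 (KO1) and 0.79 (KO2), and ITGB8 lay above 24 and 43 of them.

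ITGB6 (ENSG00000115221, chromosome 2, 160099666 to 160271888, minus strand) encodes beta6, an epithelial partner of alphaV that activates latent TGF-beta. Under its gene ID the table listed 20 counts in KO1, 20 in KO2 and 4 in NC, below 1 CPM in each column, so it was not judged by the size rule. In KO1 and NC none of these counts was from a beta6 coding transcript. The coding transcript ITGB6-201 had 0, 12 and 0 counts in KO1, KO2 and NC, and the others lay on LINC02478-201 (9, 6 and 4) and LINC02478-202 (11, 2 and 0), which GENCODE release 29 gives as a separate noncoding gene. The ratios of the gene total were 6.09 in KO1 (2.04 to 24.5) and 4.998 in KO2 (1.67 to 20.1). They thus set different RNAs against the noncoding RNA of NC: in KO1 that noncoding RNA, and in KO2 a mixture of it and the coding transcript. In KO2 the coding transcript held 12 of the 20 counts but 13.1% of the TPM.

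**Figure D3:**
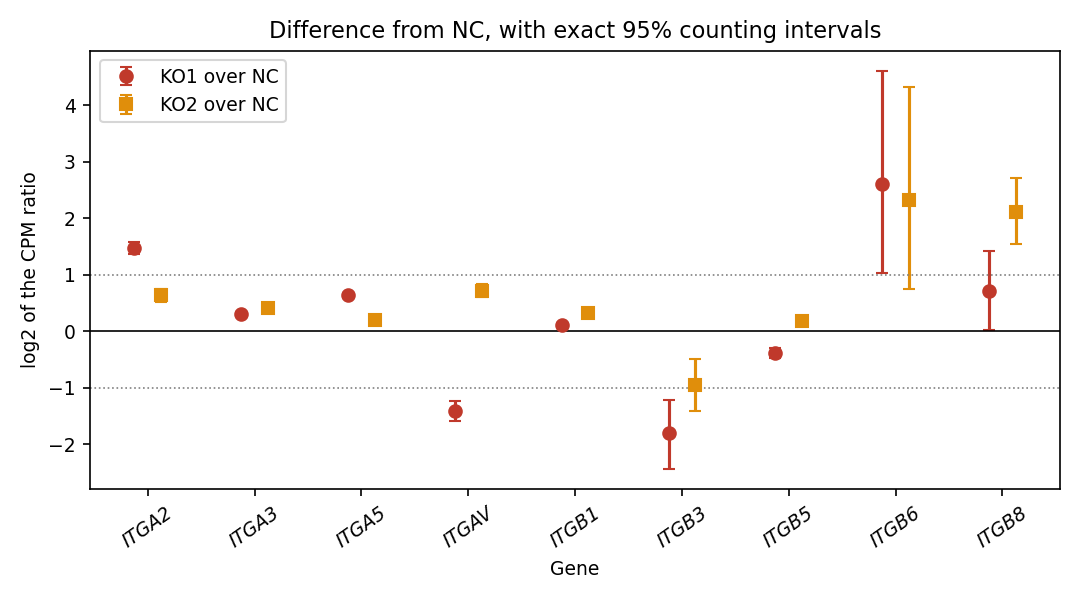
The log2 ratio of CPM to NC for the 9 integrins with counts, with exact 95% intervals of counting error, for KO1 and KO2; dotted lines mark 2-fold. ITGA2 lies above NC and ITGB3 below NC in both columns, ITGAV and ITGB5 lie on opposite sides, and the intervals of ITGB6 rest on 20 counts or fewer per column.

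Of the other integrin subunits, 6 of 16 were measured at 1 CPM or more, and 1, ITGB4, was higher in both knockout columns. By the size rule 2 were higher in KO1 and 3 in KO2, and 0 were lower in either, with median log2 folds of 0.82 and 0.95. Over all genes 15.4% were higher and 17.4% lower in KO1, 11% and 9.98% in KO2, and 6.22% and 5.65% in both. Unadjusted p was under 0.05 for 7.7% of genes in the edgeR test. Neither this list nor those below were tested against these shares. ITGA6, the laminin-binding partner of both beta1 and beta4, was at 147 CPM in KO1, 94.8 CPM in KO2 and 69.9 CPM in NC. ITGA1, the collagen-binding alpha1 chain, was at 21.5 CPM in KO1, 32.3 CPM in KO2 and 11.8 CPM in NC. ITGA10, another collagen-binding chain, was at 0.869 CPM in KO1, 6.46 CPM in KO2 and 0.750 CPM in NC. These 3 were chosen after their values were seen. Among collagen-binding alpha chains, ITGA2 thus passed in KO1, and ITGA1 and ITGA10 in KO2. ITGA10, 1 of the 3 subunits counted as higher in KO2, reached the minimum mean of 1 CPM only through that KO2 column. The edgeR test called 0 of the 6 (lowest adjusted p 0.226, ITGB4), and 1 had an unadjusted p under 0.05.

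Proteins that switch integrins on or off at the cytoplasmic tail, and actin linkers that compete there, included genes on both sides of NC. Of 19 measured, KO1 had 2 higher and 5 lower genes, and KO2 had 2 higher and 4 lower, with median log2 folds of -0.27 and -0.50. The shares of all genes were 15.4% and 17.4% in KO1, and 11% and 9.98% in KO2. In both columns 1 was higher and 3 were lower, where 6.22% of all genes were higher and 5.65% lower. TNS4, a tensin without the actin-binding part that binds the beta1 tail, was at 5.13 CPM in KO1, 13.7 CPM in KO2 and 2.21 CPM in NC. TNS1, a tensin that ties integrin tails to actin in fibrillar adhesions, was at 4.96 CPM in KO1, 14.7 CPM in KO2 and 60.5 CPM in NC. TNS4 and TNS1 thus lay on opposite sides of NC. TNS3, another long tensin and chosen after its values were seen, was at 55.9 CPM in KO1, 103 CPM in KO2 and 85.1 CPM in NC and passed in neither. FLNC, a filamin that crosslinks actin and can bind beta tails, was at 33.0 CPM in KO1, 63.4 CPM in KO2 and 173 CPM in NC. DAB2, a clathrin adaptor for beta1 endocytosis, was at 34.1 CPM in KO1, 23.5 CPM in KO2 and 72.7 CPM in NC. TLN1, the main talin that activates integrins and chosen after its values were seen, was at 520 CPM in KO1, 411 CPM in KO2 and 587 CPM in NC and passed in neither. Adjusted p was at least 0.252 over the 19 (edgeR, 0 called, 3 at an unadjusted p under 0.05, as were 7.7% of all genes).

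Adaptors and kinases of the adhesion plaque also lay on both sides of NC. Of 26 measured of 27, KO1 had 4 higher and 7 lower genes, and KO2 had 2 higher and 5 lower, with median log2 folds of -0.57 and -0.55. Again 15.4% and 17.4% of all genes passed so in KO1, and 11% and 9.98% in KO2. In both columns 2 were higher and 4 lower, beside 6.22% and 5.65% of all genes. SRC, the tyrosine kinase that phosphorylates plaque proteins, was at 31.6 CPM in KO1, 40.8 CPM in KO2 and 142 CPM in NC. BCAR1, the p130Cas scaffold that is a SRC substrate, was at 83.5 CPM in KO1, 75.5 CPM in KO2 and 196 CPM in NC. NEDD9, a scaffold of the same family, lay on the other side of NC, at 151 estimated counts in KO1, 301 in KO2 and 84 in NC.

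VCL, vinculin, which reinforces the link of talin to actin, was at 112 CPM in KO1, 87.9 CPM in KO2 and 225 CPM in NC. PTK2B, the focal adhesion kinase relative PYK2, was at 5.87 CPM in KO1, 9.43 CPM in KO2 and 22.4 CPM in NC. LPXN, leupaxin, a relative of paxillin, was higher, at 25.6 CPM in KO1, 33.8 CPM in KO2 and 11.1 CPM in NC. The focal adhesion kinase PTK2 itself, chosen after its values were seen, differed little, at 91.3 CPM in KO1, 105 CPM in KO2 and 108 CPM in NC. The edgeR test called 0 of the 26 (lowest adjusted p 0.218, SRC), and 2 had an unadjusted p under 0.05, as had 7.7% of all genes.

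Among the ligands of these integrins, genes lay on both sides of NC. Of 27 measured of 39, KO1 had 5 higher and 11 lower genes, and KO2 had 3 higher and 5 lower, with median log2 folds of -0.81 and -0.18. Beside them stand 15.4% higher and 17.4% lower of all genes in KO1, 11% and 9.98% in KO2, and 6.22% and 5.65% in both. In both columns 2 were higher, among them the laminin chain LAMA5, and 5 were lower, namely THBS2, LAMA4, COL6A2 and COL4A1, the lowest 4 by the mean of both log2 folds, and COL4A2. LAMA5, the alpha chain of a basement membrane laminin that alpha3beta1 binds, was at 208 CPM in KO1, 390.3 CPM in KO2 and 73.8 CPM in NC, or 2.82-fold (2.67 to 2.97) and 5.29-fold (5.05 to 5.55) higher. LAMA4, an alpha chain of vascular and stromal laminins, had 0 counts in KO1, 7 in KO2 and 121 in NC. It reached the minimum mean only through NC, the column against which it was counted as lower. So did THBS2, at 1.13 CPM in KO1, 0.714 CPM in KO2 and 25.8 CPM in NC. The laminin chains thus lay on both sides of NC. FN1, the fibronectin that alpha5beta1 and alphaV receptors bind, was at 109 CPM in KO1, 227 CPM in KO2 and 279 CPM in NC, and passed as lower in KO1 alone (2.55-fold, 2.44 to 2.67). It was chosen after its values were seen. The edgeR test called 0 of the 27 (lowest adjusted p 0.0508, THBS2), and 7 had an unadjusted p under 0.05, as had 7.7% of all genes.

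Genes of latent TGF-beta complexes also differed between the knockout columns. Of 7 measured of 8, KO1 had 1 higher and 3 lower genes, and KO2 had 1 higher and 1 lower, with median log2 folds of -0.95 and 0.02. All genes gave 15.4% higher and 17.4% lower in KO1, and 11% and 9.98% in KO2. LTBP1, which binds latent TGF-beta to the matrix, was at 49.9 CPM in KO1, 22.0 CPM in KO2 and 6.96 CPM in NC. LTBP3, a protein of the same family, was at 26.5 CPM in KO1, 40.2 CPM in KO2 and 80.9 CPM in NC. These 2 binding proteins lay on opposite sides of NC in both columns. In KO2 against KO1, 4 of the 7 passed as higher and 1 as lower, with a median log2 fold of 1.02. There 14.9% of all genes passed as higher and 11.2% as lower. The edgeR test called 0 of the 7 (lowest adjusted p 0.380), and 2 had an unadjusted p under 0.05, as had 7.7% of all genes.

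Membrane partners and recycling proteins of integrins showed no common side. Of 20 measured of 23, KO1 had 2 higher and 2 lower genes, and KO2 had 3 higher and 1 lower, with median log2 folds of 0.01 in both. Shares over all genes were 15.4% higher and 17.4% lower in KO1, and 11% and 9.98% in KO2. In both columns 0 were higher and 0 lower, beside 6.22% and 5.65% of all genes. Only 1, SLC3A2, passed in opposite directions, where 0.806% of all genes did. SLC3A2 encodes CD98hc, which binds beta1 and beta3 tails and also carries amino acid transporters to the membrane. It was at 1076 CPM in KO1, 130 CPM in KO2 and 355 CPM in NC, 3.03-fold higher in KO1 (2.96 to 3.10) and 2.72-fold lower in KO2 (2.62 to 2.83). SLC3A2 was chosen after its values were seen. The edgeR test called 0 of the 20 (lowest adjusted p 0.689), and 0 had an unadjusted p under 0.05, where 7.7% of all genes had.

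**Figure D4:**
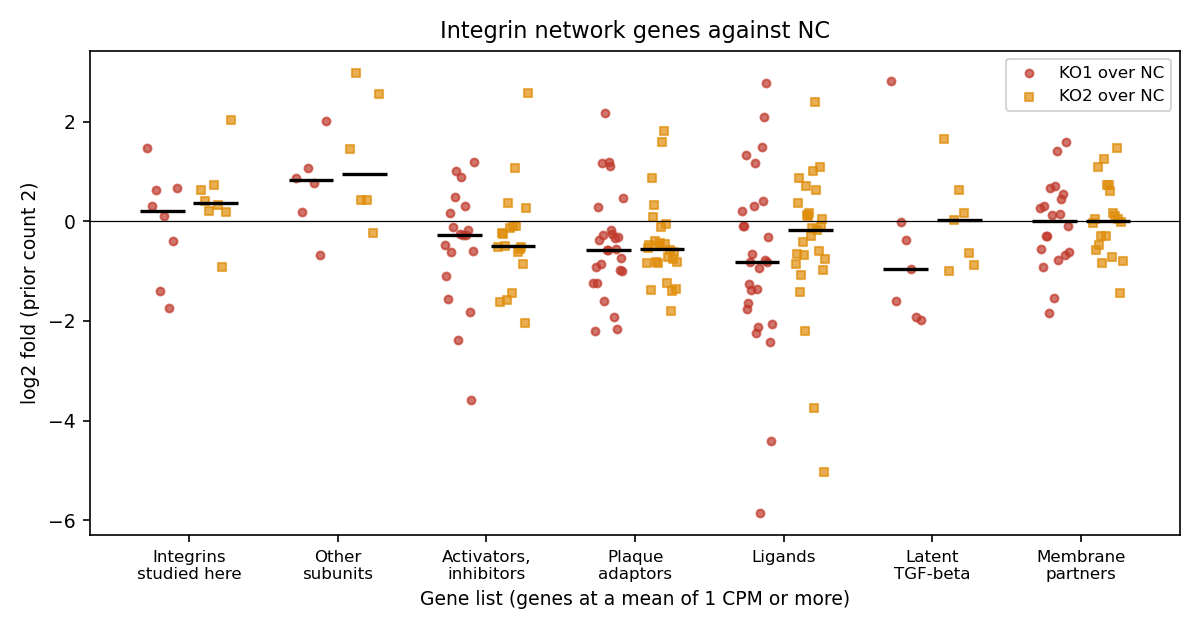
The log2 folds over NC, with a prior count of 2, of the measured genes in the integrin set and in the lists of other subunits, activators and inhibitors, plaque adaptors, ligands, latent TGF-beta genes and membrane partners. Each point is 1 gene in KO1 or KO2 and each bar is the list's median, which lies at 0.21 and 0.37 for the integrin set and at -0.81 and -0.18 for the ligands.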

How the data were processed

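Strand-specific total RNA libraries were sequenced from 6 samples in 3 groups. Per the file headers, the deposited table gives counts, TPM and FPKM for each transcript, 1 column per group for each unit. The deposited Count values are taken to be estimated counts per transcript, given as whole numbers by the authors. They were apparently rounded up: 2592 transcripts in KO1, 2425 in KO2 and 2537 in NC have a count above 0 beside a TPM of 0, so counts of a few may be too high. Whether a column is 1 library or both samples is not given in the sources used here. The deposited TPM values are scaled for transcript length. The 3 FPKM columns were not used. Per the submitters' processing notes CASAVA, Bowtie2, featureCounts and hg38 were used, without versions or roles. The count and TPM columns matched a group by name.

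Counts of 199167 transcripts were summed over 58174 gene IDs, of which 57392 had a current symbol. Transcript types, exons and coding lengths come from GENCODE release 29, which agrees in position for 196097 transcripts. The release the authors used is not given in the sources used here. CPM used TMM scaling (edgeR 4.0.16, R 4.3.3) on genes kept by filterByExpr. Each fold has an exact Clopper-Pearson 95% interval (scipy 1.17.1), conditional on the summed count. The planned comparison of single columns has 1 column per group, hence a rule of size with no p-value. The edgeR quasi-likelihood F test (robust, two-sided) set both knockout columns against NC, with an adjusted p under 0.05 as the threshold. Its p-values rest on how far 2 columns differ. The scripts were tested on simulated data.

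The members, lists and tests were chosen with earlier results of these data known. All members were named. From each other list the rule took genes called by edgeR, and up to 4 higher and 4 lower genes past the size rule in KO1 and KO2 alike, of which 1 is not reported here. From members it took transcripts with at least 10% of the gene's TPM in any column. A rule for genes of like pattern named none, as no member passed in both columns. Alternatives were other scalings, a prior count of 0.5, a 1.5-fold minimum, no minimum level, deposited TPM, transcript subsets, DESeq2 1.42.0 and limma-trend (limma 3.58.1).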

Additional observations from a re-analysis of the deposited data

Results flagged for a closer look

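ITGAV and ITGB5 drew attention because the columns KO1 and KO2, which carry the same genotype label, lay on opposite sides of NC. ITGAV had a log2 fold over NC of -1.40 in KO1 and 0.72 in KO2. ITGB5 had a log2 fold over NC of -0.39 in KO1 and 0.19 in KO2. With 1 column per group the difference between the knockout columns was not tested for either gene. Direct counting intervals of KO2 over KO1 were 3.88 to 4.95 for ITGAV and 1.41 to 1.57 for ITGB5, and cover counting error only. Of all 14524 measured genes 0.806% passed the size rule in opposite directions, which neither gene did. That share is no measure of how many genes lay on opposite sides of NC by sign alone, which was not counted.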

How the results depend on the processing

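The number of integrins passing the size rule in KO1 against NC was 3, and 5 with a 1.5-fold minimum. In KO2 against NC it was 1, with 4 at a 1.5-fold minimum and 2 with no minimum level. In KO2 against KO1 it was 2, with 4 at a 1.5-fold minimum and 4 on deposited TPM. The other scalings, prior count and transcript subsets left each of these counts within 1.5 times. No integrin was called under any of 8 settings of the test of both knockout columns (edgeR, DESeq2 and limma-trend), while calls over all genes ranged from 0 to 493 and were 27 as reported. How far a single value moved differed by gene. In KO1 against NC the log2 fold of ITGB8 was 0.67 and ranged from 0.17 to 1.21 over the alternatives. That of ITGAV was -1.40 and ranged from -1.65 to -1.31. Of 27 log2 folds, 2 changed sign under some alternative: ITGB1 in KO1 against NC, and ITGB6 in KO2 against KO1 once transcripts of the noncoding gene were left out. ITGB6 then had 0 counts in KO1 and NC, so no fold between them remained. Scaling by total counts shifted the median of all genes by -0.23 in KO1 against NC and by 0.26 in KO2 against KO1. On protein-coding transcripts alone, chosen after the data were seen, ITGA2 passed as lower in KO2 against KO1 (log2 -1.09), whereas on deposited TPM that difference shrank to a log2 fold of -0.20.

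No paired analysis was possible because the columns carry no replicate numbers and hold 1 value per group. Leaving out a knockout column leaves 0 residual degrees of freedom and gives the comparisons of single columns above. Depth limits ITGB3, ITGB6 and ITGB8, whose counts ranged from 4 to 138 per column.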
